A study of Mus musculus with 6 samples.

Results

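The genes described here encode CD23 (Fcer2a), the CD28 ligands CD80 and CD86, the ICOS ligand (Icosl), CD40, and the surface proteins CD69, CD83 and CD38, which are commonly stained to follow B cell activation. They were selected by a list of gene names and account for 8 of the 20435 gene names and 17 of the 25017 entries in the authors' deposited table. An entry stands for all transcripts of its gene that encode an identical coding sequence. RNA came from follicular B cells sorted as B220+AA4.1-CD23+CD21lo, with 3 samples from CD23Cre+Myh9wt/fl mice and 3 from CD23Cre+Myh9fl/fl mice, all on the C57BL/6 strain. Both groups carried a Cre recombinase driven by the promoter of CD23 itself and at least 1 floxed allele of Myh9, the heavy chain of myosin IIa. The wt/fl cells could lose 1 copy and the fl/fl cells both, so the comparison group was haploinsufficient and not wild-type, and no Cre-negative sample was included. The sample labels name no stimulus and give no ages.

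CD23 is a C-type lectin that binds IgE with low affinity and also binds CD21, and interleukin-4 is known to raise its transcription in B cells through STAT6. B cells show antigen to helper T cells, which engage CD40 with CD40 ligand, CD28 with CD80 and CD86, and ICOS with ICOSL. CD69 is an early activation marker that keeps the sphingosine-1-phosphate receptor S1P1 off the surface, CD83 slows the MARCH ligases that remove MHC class II and CD86, and CD38 is an ectoenzyme that consumes NAD.

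Because Fcer2a names both the sorting gate and the Cre line, the sequences before its annotated starts are shown first. RefSeq gives 3 starts for Fcer2a on the minus strand of chromosome 8 (GRCm38.p6), the second 3313 bases and the third a further 471 bases downstream of the first. Each line gives, 5′ to 3′, up to 250 bases before a start, without the single base of the first window that an exon annotation covers, and capitals mark motif matches.
Fcer2a, before the first start, chr8:3694176-3694424, minus strand: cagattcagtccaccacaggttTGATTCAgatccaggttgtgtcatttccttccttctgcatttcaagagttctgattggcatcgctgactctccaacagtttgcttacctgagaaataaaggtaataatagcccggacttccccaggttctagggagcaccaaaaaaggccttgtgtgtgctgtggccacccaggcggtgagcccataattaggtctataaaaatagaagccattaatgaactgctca
Fcer2a, before the second start, chr8:3690862-3691111, minus strand: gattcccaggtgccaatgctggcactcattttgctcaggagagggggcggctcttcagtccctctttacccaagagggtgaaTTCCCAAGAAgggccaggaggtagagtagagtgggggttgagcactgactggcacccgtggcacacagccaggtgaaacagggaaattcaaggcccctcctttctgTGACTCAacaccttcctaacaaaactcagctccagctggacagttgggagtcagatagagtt
Fcer2a, before the third start, chr8:3690391-3690640, minus strand: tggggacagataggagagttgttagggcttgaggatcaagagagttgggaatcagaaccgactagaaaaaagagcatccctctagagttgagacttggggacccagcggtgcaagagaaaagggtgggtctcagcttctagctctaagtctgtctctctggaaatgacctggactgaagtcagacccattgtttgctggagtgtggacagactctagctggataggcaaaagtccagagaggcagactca

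The second window, which lies inside the gene, holds a STAT6 motif (TTC and GAA with 4 bases between) that starts 168 bases before the start, and an AP-1 motif (TGANTCA) that starts 62 bases before it. The first window holds an AP-1 motif 228 bases before the start, and the third holds no match. Of all 32851 promoters in the RefSeq table, 5.85% held the STAT6 motif and 6.75% the AP-1 motif in the same length, on either strand. The other letters searched were TTCNNNGAA (the GAS motif, in 7.02% of promoters), the kappaB consensus (3.90%), the octamer ATGCAAAT (1.6%) and the CRE TGACGTCA (1.55%), and none of them was in the 3 windows. A match describes the letters and is not evidence of binding. RefSeq promoters were matched for 4 of the 8 genes (Fcer2a, Cd80, Icosl and Cd38), and for Cd69, Cd86, Cd83 and Cd40 no promoter was used here.

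Values are FPKM, fragment counts divided by transcript length and by the mapped fragments of the library, and can therefore be set side by side between genes. The authors pooled the 3 samples of a genotype into 1 FPKM value per entry, so the variation among mice is not visible, no difference here has a replicate check, and depth is unknown. Myh9 had 50.6 FPKM in wt/fl against 21.1 FPKM in fl/fl, 41.7% of the wt/fl value. Cre removes exon 3 of the floxed allele, and a value for the whole gene does not measure the intact transcript that remained. The B cell markers Ms4a1, Cd79a, Cd79b, Pax5, Cd22 and Cd37 were all present (summed 4592 and 4799 FPKM, as wt/fl and fl/fl here and in every later pair). The BCR chain genes Cd79b and Cd79a led them, at 1638 and 1739 FPKM and at 1098 and 1115 FPKM, and the 6 log2 ratios had a median of 0.067. In a bulk sample, a lower level can come from fewer cells of a type or from less RNA per cell, and these cannot be told apart.

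Levels of the 8 genes spanned more than 3 orders of magnitude on the FPKM scale, in the order Fcer2a, Icosl, Cd38, Cd83, Cd40, Cd69, Cd86 and Cd80 by mean. Fcer2a stood far above the others and was the gene with the 132nd highest mean FPKM among the 9867 genes compared, those that averaged 1 FPKM or more. Icosl, Cd38 and Cd83 lay within 134 to 184 FPKM of each other in both genotypes, and their order differed between the genotypes (Icosl, Cd83, Cd38 in wt/fl and Icosl, Cd38, Cd83 in fl/fl). With pooled values, whether any neighbours in this order differ beyond the spread between mice cannot be judged.

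**Figure D1:**
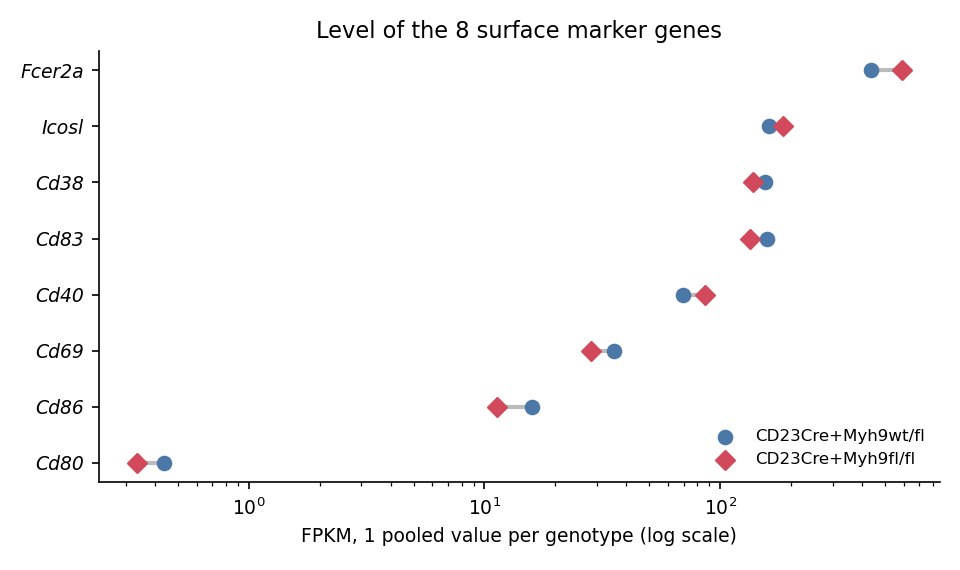
Pooled FPKM (log axis) of the 8 genes, with a circle for wt/fl and a diamond for fl/fl and a line joining them. Fcer2a is highest (439 and 588 FPKM) and Cd80 lowest (0.436 and 0.335 FPKM); the fl/fl point lies to the right for Fcer2a, Icosl and Cd40 and to the left for the other 5.

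Of the 2 receptors, both had a higher pooled value in fl/fl. Fcer2a had 439 FPKM in wt/fl against 588 FPKM in fl/fl, 1.34-fold higher, with a log2 ratio of 0.42 after 1 FPKM was added to each value, the scale of every log2 ratio here. This was the largest ratio upward among the 8 genes, and 2.12% of compared genes had a higher one. Among the 618 genes that averaged 100 FPKM or more, where ratios scattered less (5th to 95th percentile -0.23 to 0.25), 4 genes had a higher log2 ratio than Fcer2a. All cells had been sorted for surface CD23 in both genotypes.

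Set against other B cell genes, Fcer2a was at a higher proportion in fl/fl. The FPKM of Fcer2a was 0.400 times that of Cd79a, a signaling chain of the BCR, in wt/fl and 0.528 times in fl/fl. Against Ms4a1, which encodes CD20, it was 1.18 and 1.55 times. Against Cr2, which encodes CD21, the partner that was gated low, it was 2.47 and 2.96 times. Cd79a and Ms4a1 were themselves nearly level between the genotypes (each 1.02-fold) and Cr2 was 1.12-fold higher in fl/fl. The 3 ratios therefore restate the Fcer2a value and are not separate observations.

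Fcer2a had 7 entries on chromosome 8 between 3681736 and 3694174 (mm9, the build on which the positions in the authors' table lie), and 6 of them had a higher value in fl/fl while the seventh was listed at 0 in both genotypes. The leading entry held most of the gene, at 378 and 501 FPKM (1.33-fold), which was 86.2% and 85.2% of its FPKM. The next entries were at 45.9 and 63.5 FPKM (1.38-fold) and at 8.73 and 12.0 FPKM (1.38-fold). The 3 entries above were close in ratio, whereas 2 rare ones differed more, at 2.67 and 5.13 FPKM (1.92-fold) and at 1.35 and 3.78 FPKM (2.79-fold). The remaining entry was at 1.93 and 2.69 FPKM. The entries are parts of 1 gene in the same pooled samples, so their shared direction is not a repeat of the result. The authors' table does not pair entries with transcripts, so which of the 7 distinct coding sequences that GENCODE M21 gives for the gene each entry holds, and from which start, is not stated here.

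Cd40, the receptor for CD40 ligand, had 69.8 FPKM in wt/fl against 85.9 FPKM in fl/fl, 1.23-fold higher, with a log2 ratio of 0.30 that 5.62% of compared genes exceeded. Among the 1951 genes with a mean of 30 to 100 FPKM, 50 had a higher log2 ratio. Its 4 entries on chromosome 2 between 164881135 and 164897154 (mm9) did not all point the same way. The leading entry was at 36.4 and 50.4 FPKM and made up 52.2% and 58.7% of the gene, while the next was lower in fl/fl, at 21.3 and 18.6 FPKM. The other entries were at 6.06 and 9.17 FPKM and at 5.96 and 7.71 FPKM. The value for the gene therefore depends on the entries counted, and the log2 ratio was 0.46 with the leading entry alone.

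**Figure D2:**
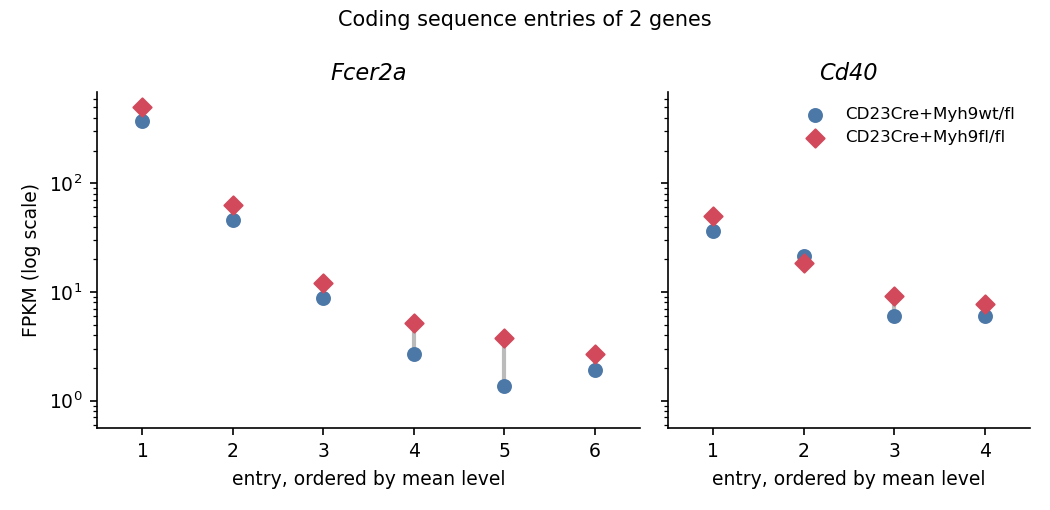
FPKM (log axis) of each coding sequence entry of Fcer2a and Cd40, ordered by mean level, with a circle for wt/fl and a diamond for fl/fl. The 6 Fcer2a entries above 0 are each higher in fl/fl; of the 4 Cd40 entries, the second (21.3 and 18.6 FPKM) is lower in fl/fl and the other 3 are higher.

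The costimulatory ligands were at unlike levels and did not share a direction. Icosl, the ligand of ICOS (chromosome 10, 77532112 to 77542270), was the most abundant of them at 161 FPKM in wt/fl against 184 FPKM in fl/fl, 1.15-fold higher, with a log2 ratio of 0.20. Cd86 (chromosome 16, 36603954 to 36666163) had 16.0 FPKM in wt/fl against 11.3 FPKM in fl/fl, 1.41-fold lower, with a log2 ratio of -0.46. This was the largest ratio downward among the 8 genes, and 2.67% of compared genes had a lower one. Among the 3379 genes with a mean of 10 to 30 FPKM, 34 had a lower log2 ratio than Cd86. Cd80 (chromosome 16, 38459012 to 38487014) was at 0.436 and 0.335 FPKM, under the minimum of 1 FPKM, and was not compared. The FPKM of Cd86 was 36.6 times that of Cd80 in wt/fl and 33.8 times in fl/fl, so CD86 was the main transcript of the CD28 ligands in both genotypes. The FPKM of Icosl was 10.05 times that of Cd86 in wt/fl and 16.2 times in fl/fl, and that of Cd40 was 4.37 and 7.57 times.

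The activation and maturation markers and CD38 all had a lower pooled value in fl/fl. Cd69 (chromosome 6, 129217342 to 129225387) had 35.4 FPKM in wt/fl against 28.3 FPKM in fl/fl, 0.799 times the wt/fl value, with a log2 ratio of -0.31. A lower log2 ratio was found for 5.83% of compared genes, and for 51 of the 1951 genes with a mean of 30 to 100 FPKM. Cd83 (chromosome 13, 43880475 to 43898501) was at 159 and 134 FPKM, 1.19-fold lower, with a log2 ratio of -0.24, and 29 of the 618 genes that averaged 100 FPKM or more had a lower one. Cd38 (chromosome 5, 44260065 to 44303613), which is high on resting follicular B cells of the mouse, was at 155 and 138 FPKM, 1.13-fold lower, with a log2 ratio of -0.17. The smallest ratios of the 7 genes compared, those of Icosl and Cd38, were exceeded in their own direction by 12.5% and 16.0% of compared genes.

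Of the 7 genes compared, 3 were higher and 4 lower in fl/fl, with a median log2 ratio of -0.17 against 0.0026 over all 9867 compared genes, of which 50.5% were higher. None of the 7 reached 1.5-fold either way, counted here and in every list with 1 FPKM added, a size that 0.791% of compared genes reached upward and 1.53% downward. At a smaller size, at least 25% higher or 20% lower with 1 FPKM added, 1 gene was higher (Fcer2a) and 1 lower (Cd86), where 4.6% of compared genes were higher and 5.48% lower. Cd69 lay just short of that size on this scale. Counted entry by entry, 15 of the 17 entries averaged 1 FPKM or more, and 2 of these reached 1.5-fold upward, both rare entries of Fcer2a, and none downward. Over all 11413 entries compared, 2.86% reached that size upward and 3.36% downward. The log2 ratios of the 7 genes ran from -0.46 to 0.42, against a 5th to 95th percentile of -0.34 to 0.31 over all compared genes. Fcer2a and Cd86 lay outside that range and the other 5 inside it. That range includes low genes, whose ratios scattered more. Among genes of 30 to 100 FPKM the range was -0.25 to 0.25, and Cd40 (0.30) and Cd69 (-0.31) lay outside it. Among genes of 100 FPKM or more it was -0.23 to 0.25, with Fcer2a and Cd83 (-0.24) outside and Icosl and Cd38 inside. At 10 to 30 FPKM it was -0.27 to 0.28, with Cd86 outside.

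**Figure D3:**
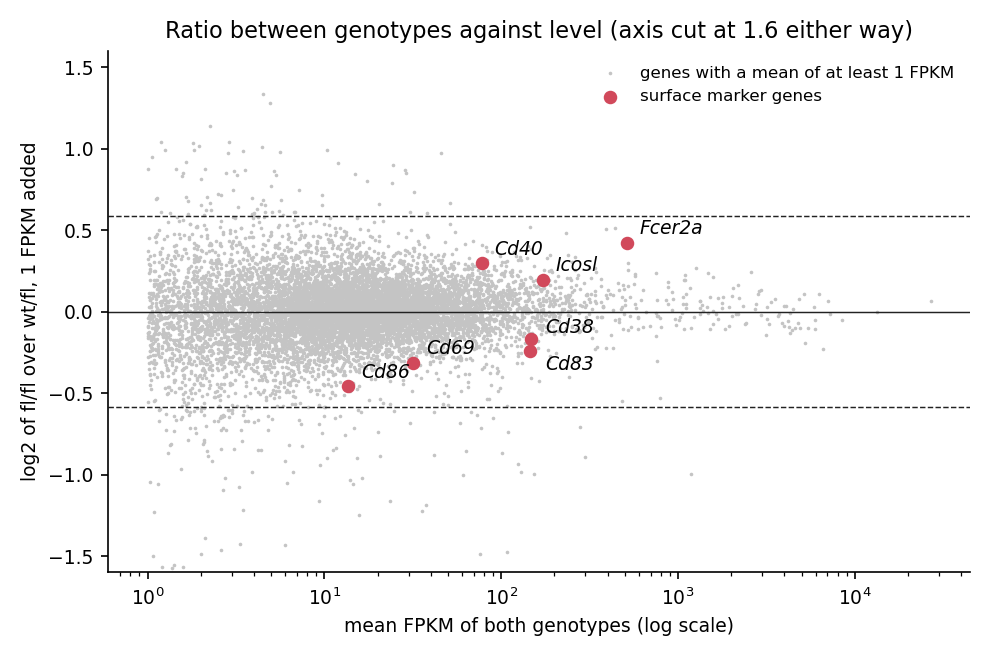
Log2 ratio of fl/fl over wt/fl (1 FPKM added) against mean FPKM (log axis) for the 9867 compared genes in gray, with the 7 compared surface marker genes in red and dashed lines at 1.5-fold; 13 genes lie beyond the axis limits. Fcer2a (0.42) and Cd40 (0.30) lie above the 5th to 95th percentile of genes of like level. Cd86 (-0.46), Cd69 (-0.31) and Cd83 (-0.24) lie below it, and none of the 7 crosses a dashed line.

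Genes that work with CD23 gave no shared direction. Of the 10 genes for its binding partners, the chains of the high-affinity IgE receptor and its sheddase, 7 were compared, 4 were higher and 3 lower, none reached 1.5-fold, and the median log2 ratio was 0.027. Cr2 was at 177 and 198 FPKM, Itgb2, the beta chain of the leukocyte integrins, at 39.7 and 42.3 FPKM, and Adam10, the protease that sheds CD23, at 20.7 and 21.1 FPKM. The value of Adam10 was thus nearly level between the genotypes. Of 7 genes of the interleukin-4 receptor pathway 6 were compared, 4 were higher and 2 lower, and the median was 0.052. Il2rg, the common gamma chain, was at 330 and 345 FPKM, the kinase gene Jak1 at 140 and 148 FPKM, and Stat6 at 61.5 and 54.9 FPKM, while Il4ra was at 45.4 and 46.7 FPKM.

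CD40 signals through TRAF adaptors and NF-kB. All 18 genes of its pathway were compared, 12 were higher and 6 lower, none reached 1.5-fold, and the median was 0.078. The most abundant were Rel, an NF-kB subunit, at 139 and 120 FPKM, Birc3, a ubiquitin ligase bound to TRAF2, at 111 and 138 FPKM, Ikbkb, an IkB kinase, at 67.4 and 61.0 FPKM, and Nfkbia, which encodes IkB alpha, at 48.8 and 58.9 FPKM. These 4 genes thus split evenly in direction. The T cell counter-receptors Cd28, Ctla4, Icos and Cd40lg were each under 1 FPKM (summed 0.993 and 0.682 FPKM).

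Of 8 other genes of the B7 and CD28 families and the HVEM receptor, 6 were compared, 5 were higher and 1 lower, none reached 1.5-fold, and the median was 0.22. Btla, an inhibitory receptor on B cells, was at 287 and 345 FPKM, and the genes of the PD-1 ligands, Cd274 and Pdcd1lg2, were at 28.8 and 33.1 FPKM and at 14.9 and 17.7 FPKM. Icosl and these 3 genes were thus each higher in fl/fl, while Cd86 was lower. Of 10 TNF family costimulation genes 5 were compared, 3 were higher and 2 lower, and the median was 0.031. Among them Tnfrsf18, which encodes GITR, was at 19.1 and 19.6 FPKM and Cd27 at 6.10 and 5.78 FPKM, and Fas, the death receptor, was past 1.5-fold at 4.43 and 7.19 FPKM.

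Other surface genes of activation and adhesion were divided, 7 higher and 8 lower of 15 compared, with a median of -0.042 that was 0.10 with the leading entry of each gene alone. Cd24a was at 317 and 303 FPKM and Cd48, a ligand of SLAM family receptors, at 174 and 186 FPKM. Slamf1, a self-binding SLAM receptor, was the 1 gene of the list past 1.5-fold, at 23.8 and 40.3 FPKM with a log2 ratio of 0.73. Of 5 genes for a CD38 relative, a CD38 ligand and ectonucleotidases, 3 were compared and all were higher, with a median of 0.17. These 3 were Pecam1, which encodes the CD38 ligand CD31, at 71.0 and 80.0 FPKM, and the ectonucleotidase genes Enpp1 and Entpd1. Enpp1 was at 17.96 and 22.1 FPKM and Entpd1 at 5.45 and 5.88 FPKM. The CD38 relative Bst1 was at 0.372 and 0.406 FPKM and was not compared. Cd38 itself was lower in fl/fl.

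Of 6 genes tied to CD69 and CD83, 5 were compared, 3 were higher and 2 lower, none reached 1.5-fold, and the median was 0.11. The MHC class II genes H2-Aa and H2-Ab1, whose products CD83 spares from removal, were at 6083 and 6545 FPKM and at 2360 and 2796 FPKM. Clec2d, a lectin gene near Cd69, was at 127 and 166 FPKM, and S1pr1, whose product CD69 holds off the surface, at 98.0 and 75.2 FPKM. Cd69 and S1pr1 were therefore both lower in fl/fl. March1, the ligase opposed by CD83, was at 51.9 and 49.4 FPKM.

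**Figure D4:**
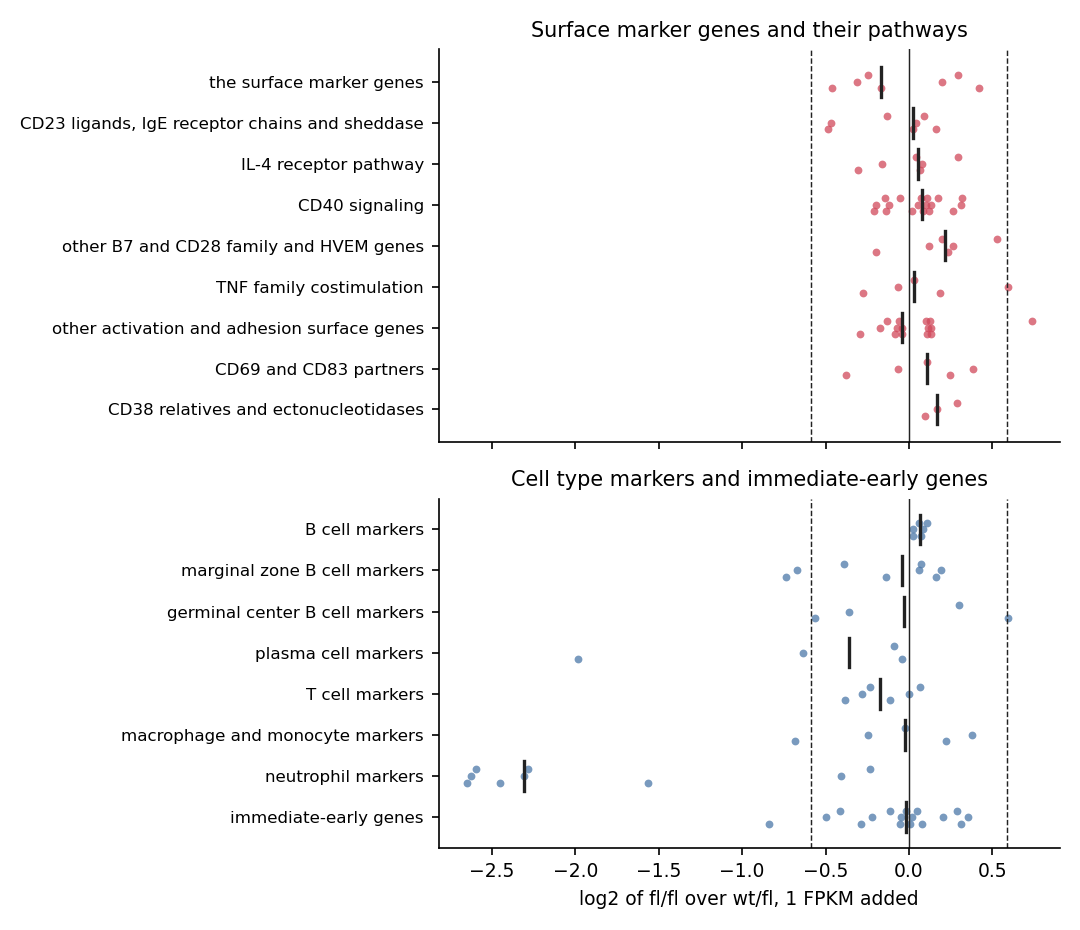
Log2 ratio of fl/fl over wt/fl (1 FPKM added) of each compared gene (dots) in the surface marker genes, their pathway lists and the cell type lists, with a black bar at each median and dashed lines at 1.5-fold. The pathway lists have medians from -0.042 to 0.22, with Fas and Slamf1 past the upper line, and the neutrophil markers lie farthest from 0 (median -2.31).

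Markers of the gate and of other cells moved beside these genes. The gate genes were each higher in fl/fl, with a median log2 ratio of 0.29: Ptprc, the gene of B220, was at 467 and 575 FPKM, Cr2 at the values given, and Cd93, the gene of the AA4.1 antigen, at 3.28 and 4.23 FPKM. The 3 entries of Ptprc were at 329 and 405, 102 and 77.7, and 35.6 and 92.3 FPKM. The FPKM values of the Ptprc entries could not be reconciled with another column of the authors' table. Of 13 neutrophil markers 9 were compared, all 9 were lower and 7 were past 1.5-fold, with a median of -2.31 and a summed level of 387 FPKM in wt/fl against 73.3 FPKM in fl/fl. Mpo and Elane were listed at 0 in fl/fl and were at 0.0916 and 0.119 FPKM in wt/fl. The calprotectin genes S100a9 and S100a8 were at 175 and 34.5 FPKM and at 145 and 25.8 FPKM. The granule genes Ngp, Lcn2 and Camp and the secreted Retnlg were at 12.6 to 15.3 FPKM in wt/fl and 1.21 to 1.88 FPKM in fl/fl, and Ltf was at 2.31 and 0.118 FPKM. The 5 compared macrophage and monocyte markers of 10 split into 2 higher and 3 lower (median -0.024, summed 87.4 and 58.7 FPKM), with Lyz2 past 1.5-fold at 72.6 and 44.9 FPKM and Cd68 at 7.41 and 6.10 FPKM. Of 8 dendritic cell markers 7 were under 1 FPKM, Cd209a was at 2.07 and 1.06 FPKM and Zbtb46 at 0.772 and 0.498 FPKM (summed 5.03 and 3.76 FPKM). Lyz2 made up most of the macrophage and monocyte sum in both genotypes, while C1qb and C1qc were higher in fl/fl (log2 ratios 0.38 and 0.22). In the dendritic cell list Cd209a had the largest drop, Batf3, Siglech and Clec9a were higher in fl/fl, and the rest were lower. The 3 myeloid sums were thus lower in fl/fl without a shared direction of the macrophage or dendritic cell genes. Cd86, Cd69, Cd83 and Cd38 were also lower, and the part of myeloid cells in their values was not tested.

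Among lymphocyte lists, 8 marginal zone B cell markers were all compared, 4 were higher and 4 lower (median -0.039, summed 376 and 334 FPKM). Plac8 at 138 and 82.1 FPKM and Cd9 at 4.61 and 2.52 FPKM were past 1.5-fold. The difference in Plac8 was larger than that of the sum. The 4 higher genes were Cr2, at 177 and 198 FPKM, Cd1d1, Cd36 and S1pr3. Dtx1, at 27.3 and 20.6 FPKM with a log2 ratio of -0.39, and Myof, at 4.08 and 3.62 FPKM, were also lower. Of 7 germinal center markers 4 were compared, 2 were higher and 2 lower (median -0.029, summed 58.2 and 69.9 FPKM), with the repressor gene Bcl6 at 48.4 and 60.0 FPKM, the proliferation gene Mki67 at 2.69 and 1.501 FPKM, and Fas past 1.5-fold. All 4 compared plasma cell markers of 5 were lower (median -0.36, summed 118 and 107 FPKM), 2 of them past 1.5-fold, the J chain gene Igj at 5.40 and 0.617 FPKM and Sdc1, which encodes CD138, at 2.30 and 1.13 FPKM. The transcription factor genes Irf4 and Xbp1, also expressed by B cells, were at 60.8 and 58.9 FPKM and at 48.8 and 45.9 FPKM. Of 7 transitional and precursor markers 2 were compared (median 0.14, summed 321 and 319 FPKM), Vpreb3 was at 318 and 314 FPKM, and Igll1 was listed at 0 in both genotypes. Of 9 T cell markers 6 were compared, 2 were higher and 4 lower (median -0.17, summed 26.7 and 24.5 FPKM), with the kinase gene Lck at 14.5 FPKM in each and Cd3d at 3.02 and 2.31 FPKM. The 5 mast cell and basophil markers were each under 1 FPKM on average (summed 1.21 and 1.54 FPKM), the highest being Ms4a2 at 0.629 and 1.02 FPKM. The part of these cells in the values of the 8 genes was not tested.

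Immediate-early genes, which are transcribed within minutes of stimulation or handling, were set beside Cd69 and Cd83 as another measure of recent activation. Of 21 genes 17 were compared, 8 were higher and 9 lower (median -0.018, summed 769 and 768 FPKM). The most abundant, Zfp36, Dusp2 and Btg2, were at 336 and 348 FPKM, 101 and 97.2 FPKM, and 73.7 and 60.3 FPKM. The phosphatase gene Dusp1 was the 1 gene past 1.5-fold, at 15.3 and 8.12 FPKM. The sum was near level, but Zfp36 and Dusp2 made up most of it. Fos (13.1 and 9.02 FPKM) and Nr4a1 (12.1 and 8.87 FPKM) were lower in fl/fl, as were Cd69 and Cd83. Ier2 (41.3 and 53.1 FPKM) and Egr1 (16.6 and 20.8 FPKM) were higher, so the list had no shared direction.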

How the data were processed

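RNA was amplified with the Ovation RNA-Seq system V2 and libraries were prepared with the TruSeq Nano DNA kit. The authors deposited 1 table, in the layout of Cuffdiff, with 1 pooled FPKM value per genotype and entry; the submitters' processing notes name Bowtie, TopHat and Cufflinks without versions, and parameters are not given in the sources used here. The notes name mm10 and GRCm38, but positions in the table lie on mm9 (Myh9 at chromosome 15, 77591018 to 77672545, against 77760587 to 77842175 in GRCm38) and were not converted. Fold change, p-value, q-value, test statistic and status columns hold the authors' own comparison and were not used. Pooling hides the variation between mice, the effect of amplification was not tested, and FPKM keeps no depth.

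FPKM of all entries with the same gene name was added up, only genes that averaged 1 FPKM or more were compared, and ratios were taken as log2 after adding 1 FPKM, which understates the change of low genes. Fold thresholds are sizes, not tests. With 1 value per genotype no test was run; a model with a value per sample had been planned in case the table held them. Symbols stored as dates (40 entries) were left out, and March1 and March8 were recovered by number and chromosome from GENCODE M21, a choice made after the values were seen. The genes and the 21 lists beside them were chosen with earlier results of these data known. Named were the 8 genes, Myh9, the gate genes, the 2 to 4 most abundant genes of a list and every listed gene past 1.5-fold. March1, markers listed at 0, Fos, Nr4a1, Egr1, Cd36, S1pr3, Myof, Bst1, C1qb, C1qc, Batf3, Siglech and Clec9a were added after their values were seen. All 193 listed symbols, some under older names, were found, and 2 further genes of the lists are not reported here and enter no list value. Computations were tested on simulated data and run with Python 3.11.15, pandas 2.3.3, numpy 2.4.6 and matplotlib 3.10.9.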

Additional observations from a re-analysis of the deposited data

How the results depend on the processing

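No paired analysis was possible because each genotype has 1 pooled value without replicate numbers, and for the same reason no replicate could be left out. The log2 ratios of the 8 genes took 56 values under other pseudocounts, scalings and entry choices. A change of pseudocount cannot turn the sign, and the leading entry alone returns the same value for genes with 1 entry. Part of the agreement was therefore fixed in advance. All 56 kept their sign and 53 stayed within 0.1. The exceptions were Cd40 with its leading entry alone (0.46) and Cd80 with a pseudocount of 0.1 (-0.30) or 0 (-0.38, chosen after the values were seen, as was scaling to the B cell markers). Fcer2a ranged from 0.36 to 0.42 and Cd86 from -0.52 to -0.46. With 1 FPKM added, 1 of the 7 genes compared was at least 25% higher and 1 at least 20% lower. Counted entry by entry, 2 entries, both of Fcer2a, were higher at 1.5-fold. Over all compared genes, 78 were higher and 151 lower at 1.5-fold. These counts were 158 and 256 with a pseudocount of 0.1, 26 and 67 with a mean of at least 5 FPKM, 454 and 541 at 25% higher or 20% lower, 9 and 40 at 2-fold, and 326 and 384 of 11413 when entries were counted.

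List medians took 132 values, of which 112 stayed within 0.1 and 126 kept their sign. The median of the activation and adhesion genes was 0.10 with the leading entry alone and 0.10 with a mean of at least 5 FPKM; all others that moved further belong to cell type lists. With a pseudocount of 0.1, medians were -0.15 (germinal center), -0.53 (plasma cell), -0.28 (T cell), -2.73 (neutrophil) and -0.91 (dendritic cell), and with 0.5 they were -2.47 (neutrophil) and -0.72 (dendritic cell). With no minimum they were 0.011 (transitional), -0.36 (germinal center), -0.13 (plasma cell), -1.57 (neutrophil) and -0.035 (dendritic cell). With a mean of at least 5 FPKM they were -0.015 (transitional), 0.45 (germinal center), -0.066 (plasma cell), 0.0029 (T cell), -2.45 (neutrophil) and -0.46 (macrophage). What can be measured of low genes such as Cd80 is limited by an unknown depth.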
